A study of Homo sapiens with 23 samples.

Results

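The comparison described here set C-33A cervical carcinoma cells given a synthetic miR-218-5p mimic against C-33A cells given a negative control. It covers all 61217 genes listed in the authors' deposited table of that comparison and rests on 6 of the 23 libraries of the series. C-33A is an established HPV-negative line that the labels class as squamous cell carcinoma of the cervix. The mimic group holds 3 libraries from cells given 100 nM of the miR-218-5p mimic, and the control group holds 3 libraries from cells given 100 nM of negative control n#1. CaSki, an HPV-positive cervical line, was treated with the same mimic and control at the same dose, with 3 libraries in each group, and serves below as the line most like it. Values are also given beside these from C-33A cells that received 100 nM of the miR-124-3p mimic (2 libraries) or of the miR-23b-3p mimic (3 libraries), compared with the same control libraries. Libraries were made from polyA-selected RNA, and the sources used here do not give the time between transfection and harvest. Whether the libraries of a group stem from separate cultures is not stated in the labels, and the p-values may therefore measure technical spread only. Values per library are not analysed here, so depth is unknown and each gene is described by its fold change, its standard error (SE) and its average level.

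MicroRNAs are short RNAs that guide an Argonaute protein to messenger RNAs. Pairing of the seed, the stretch near the 5′ end of the microRNA, to a match in the 3′ UTR of a transcript leads to loss of the poly(A) tail, decay of the transcript and reduced translation. The human genes for miR-218 lie in introns of SLIT2 and SLIT3, genes for secreted axon guidance ligands, and miR-218-5p is known in cervical carcinoma as a microRNA of reduced level in cells with high-risk HPV.

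The mature sequence is shown because the matches discussed below follow from its seed, bases 2 to 8, which is in capitals (RefSeq, GRCh38.p14).
hsa-miR-218-5p: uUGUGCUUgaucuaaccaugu
A site is a stretch of a 3′ UTR that pairs with this seed. An 8mer site is a match to bases 2 to 8 (AAGCACA in DNA letters) followed by an A, a 7mer-m8 site is that match without the A, a 7mer-A1 site is a match to bases 2 to 7 followed by an A, and a 6mer site is a match to bases 2 to 7 alone.

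The following 21-base stretches of 3′ UTRs, written 5′ to 3′ on the strand of the transcript with the site in capitals, are shown for genes that fell: the 2 with the lowest adjusted p, the published targets among the falls and an example of each shorter class of site (GRCh38, GENCODE release 29).
COMMD8, 8mer, chr4:47451300-47451320, minus strand: atgtaaaaatataAAGCACAA
MOSPD1, 8mer, chrX:134888165-134888185, minus strand: aaaaaagtcccctAAGCACAA
MOSPD1, 8mer, chrX:134888055-134888075, minus strand: gatttttacctgaAAGCACAA
GLCE, 8mer, chr15:69269874-69269894, plus strand: agttatataatgtAAGCACAA
GLCE, 8mer, chr15:69271828-69271848, plus strand: gcaaaaatgacacAAGCACAA
GLCE, 8mer, chr15:69272039-69272059, plus strand: gactttgcagtttAAGCACAA
VOPP1, 8mer, chr7:55471178-55471198, minus strand: aaatgagacaacaAAGCACAA
BIRC5, 7mer-A1, chr17:78224174-78224194, plus strand: ttaattcacagaatAGCACAA
BIRC5, 8mer, chr17:78224197-78224217, plus strand: tacaattaaaactAAGCACAA
STAM2, 8mer, chr2:152120448-152120468, minus strand: ccatgaataaataAAGCACAA
GJA1, 7mer-m8, chr6:121448988-121449008, plus strand: gctgtggcaagtaAAGCACAc
CETN2, 7mer-m8, chrX:152827808-152827828, minus strand: ctttttctactgcAAGCACAt
CETN2, 7mer-m8, chrX:152827494-152827514, minus strand: aacgactttagacAAGCACAt
PCGF5, 7mer-A1, chr10:91278884-91278904, plus strand: ttctgtaacattagAGCACAA
THAP5, 6mer, chr7:108563953-108563973, minus strand: ccaaattaaaatttAGCACAt
GLCE holds 3 8mer sites and MOSPD1 holds 2, whereas COMMD8 and STAM2 hold 1 site each. Of VOPP1, PCGF5 and THAP5, which hold more matches, 1 is shown. A 7mer-m8 site of MOSPD1 and a 6mer site of CETN2 are also not shown.

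At a deposited FDR under 0.05, 46 genes were called (0.0751% of the listed genes): 42 fell (0.0686%) and 4 rose (0.00653%). Over the 15373 genes whose average log2 CPM reached 0, termed measured genes below, the shares were 0.299% in all, 0.273% for falls and 0.026% for rises. Of the falls, 41 were protein coding genes. Their products include membrane and trafficking proteins, ubiquitin enzymes, Polycomb subunits, signalling proteins and proteins of the mitotic and ciliary apparatus. The falls ranged from -1.12 to -0.67 on the log2 scale, with SEs of 0.162 to 0.26, and 32 of the 42 ended under 60% of the control level. In bulk RNA such as this, fewer cells with a transcript and less RNA per cell cannot be told apart.

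**Figure D1:**
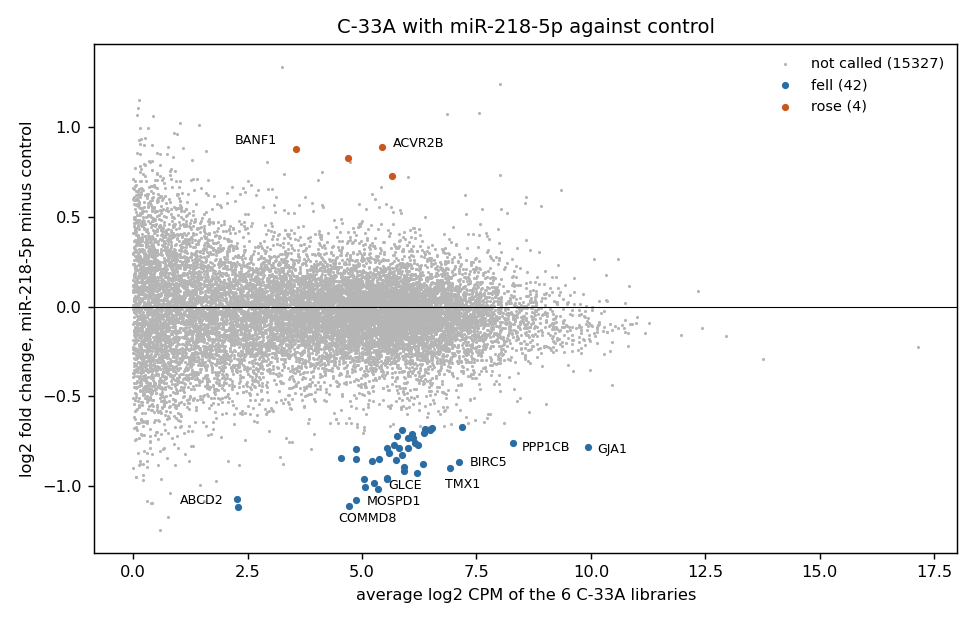
Log2 fold change (miR-218-5p minus control, y axis) of the 15373 measured genes against their average log2 CPM (x axis). The 42 falls (blue) lie between average log2 CPM 2.28 and 9.94 and at fold changes from -1.12 to -0.67, the 4 rises (orange) lie from 0.73 to 0.89, and genes that were not called are grey.

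Below an average log2 CPM of 2 no gene was called, and the median SE there was 0.341. The median SE was 0.225 between 2 and 4, 0.175 between 4 and 6 and 0.162 between 6 and 8. Of all measured genes, 58.3% had a fold change below 0, and the median was -0.04. At an unadjusted p under 0.05, 555 measured genes were lower (3.61%) and 221 were higher (1.44%).

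The falls are grouped here by known role, a grouping made after their values were seen, membrane and trafficking proteins first. COMMD8 (chr4:47450796-47463719, GRCh38), a subunit of the Commander complex that recycles membrane proteins from endosomes, fell by 1.11 (SE 0.183, adjusted p = 6.76e-05) on the log2 scale in the authors' deposited table (edgeR quasi-likelihood test with Benjamini-Hochberg adjustment, as for every adjusted p of a single comparison below). This left 46.3% of the control level, with a 95% interval of the log2 fold change from -1.47 to -0.75. Of 16 measured members of the COMMD and Commander list COMMD8 alone fell (against 0.273% of measured genes), none rose (against 0.026%), and the median was -0.05. MOSPD1 (chrX:134887626-134915267), a membrane protein with a major sperm protein domain, fell by 1.08 (SE 0.18, adjusted p = 6.76e-05) in the authors' deposited table. Its relatives VAPA at -0.17 and VAPB at 0.30 in the authors' deposited table were not called. TMX1 (chr14:51240162-51257546), a thioredoxin-related membrane protein of the endoplasmic reticulum, fell by 0.90 (SE 0.163, adjusted p = 0.000216) in the authors' deposited table. VOPP1 (chr7:55436056-55572988), a protein of endosomal and lysosomal membranes, fell by 0.96 (SE 0.17, adjusted p = 0.000154) in the authors' deposited table. GASK1B (chr4:158124474-158173318), a Golgi-associated kinase-like protein, fell by 0.95 (SE 0.17, adjusted p = 0.000169) in the authors' deposited table. TMEM64, a transmembrane protein, fell by 0.92 (SE 0.166, adjusted p = 0.000216) in the authors' deposited table.

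Further falls touched endosome sorting. STAM2, an ESCRT-0 subunit that binds ubiquitinated cargo, fell by 0.69 (SE 0.166, adjusted p = 0.0493) in the authors' deposited table. The paralogue STAM stood at 0.23, with its deposited adjusted p at 1 in the authors' deposited table. The other 11 of 12 measured ESCRT-0 and ESCRT-I members were not called (0.299% of measured genes were called, median of the list -0.08). SNX4, a sorting nexin of the recycling route, fell by 0.79, and RAB8B, a small GTPase of vesicle transport, fell by 0.83 in the authors' deposited table. FYCO1, an adaptor that moves autophagosomes and late endosomes along microtubules, fell by 0.85 in the authors' deposited table. ZDHHC2, a palmitoyltransferase, fell by 0.79, and the membrane proteins ITM2C and C5orf15 fell by 0.85 and 0.70 in the authors' deposited table. FAM3C, a secreted cytokine-like protein, fell by 0.86 in the authors' deposited table. In the authors' deposited table its pseudogene FAM3C2P stood at -0.79 (adjusted p = 0.0801). Counting could divide reads between this gene and its copy.

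At the cell surface, the gap junction protein GJA1 (connexin 43) fell by 0.78 (SE 0.164, adjusted p = 0.00551) in the authors' deposited table. The other 2 measured connexins were not called (0.299% of measured genes were called), and GJC1 stood at 0.25 in the authors' deposited table. CADM2, an adhesion molecule, fell by 0.77, and DCBLD2, a receptor-like membrane protein, fell by 0.68 in the authors' deposited table. IGFBP3, a secreted binding protein of insulin-like growth factors, fell by 0.85 in the authors' deposited table. None of 14 measured receptor tyrosine kinases was called (against 0.299% of measured genes, median 0.02). The lowest p belonged to IGF1R at 0.44 (SE 0.207) in the authors' deposited table.

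Among signalling proteins, GNAI2, an inhibitory G protein alpha subunit, fell by 0.82 (SE 0.168, adjusted p = 0.00383) in the authors' deposited table. It was the only one of 11 measured alpha subunits to be called (against 0.299% of measured genes). Its paralogues GNAI1 and GNAI3 stood at -0.27 and -0.13 in the authors' deposited table. PIK3C2A, a class II phosphoinositide kinase, fell by 0.67, and MTMR12, an inactive relative of the myotubularin phosphatases, fell by 0.79 in the authors' deposited table. GDE1, a glycerophosphodiester phosphodiesterase, fell by 0.68 in the authors' deposited table. PPP1CB, a catalytic subunit of protein phosphatase 1, fell by 0.76 in the authors' deposited table. The mTOR and PI3K-AKT list, which does not hold PIK3C2A, had 0 of 27 measured members called (against 0.299% of measured genes) and a median of -0.03. At an unadjusted p under 0.05, 2 were lower and 1 was higher (against 3.61% and 1.44%). RICTOR, the defining subunit of mTOR complex 2, was among the lower ones at -0.48 (SE 0.166, adjusted p = 1) in the authors' deposited table.

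In cell division and the cilium, BIRC5 (survivin), a subunit of the chromosomal passenger complex and an inhibitor of apoptosis, fell by 0.87 (SE 0.163, adjusted p = 0.000429) in the authors' deposited table. BIRC5 alone fell of the 5 measured genes of that list, which also holds the related kinase AURKA (against 0.273% of measured genes). The kinase AURKB stood at -0.06 and INCENP at 0.06 in the authors' deposited table. None of 29 measured mitotic genes was called (against 0.299% of measured genes), and 3 were lower at an unadjusted p under 0.05 (against 3.61%). These were the kinesin CENPE at -0.52, the contractile ring protein ANLN at -0.46 and the checkpoint kinase TTK at -0.35 in the authors' deposited table. CETN2 (chrX:152826973-152830777), a centrin of the centriole that also serves the XPC repair complex, fell by 0.98 (SE 0.174, adjusted p = 0.000154) in the authors' deposited table. XPC stood at 0.14 and CETN3 at -0.31 in the authors' deposited table, and neither was called. DCDC2, a doublecortin-domain protein of the cilium, fell by 0.76, and CILK1, a ciliary kinase, fell by 0.84 in the authors' deposited table.

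Chromatin and transcription proteins made up another group. PCGF5 (chr10:91163012-91284331), a RING-finger subunit of a Polycomb repressive complex, fell by 0.92 (SE 0.165, adjusted p = 0.000169) in the authors' deposited table. PHC3, a polyhomeotic subunit of Polycomb that is outside the list, fell by 0.69 (SE 0.164, adjusted p = 0.0422) in the authors' deposited table. In the Polycomb list of 16 measured members PCGF5 alone fell (against 0.273% of measured genes) and 3 others were lower at an unadjusted p under 0.05 (against 3.61%), with a median of -0.04. These were BMI1 at -0.60 (adjusted p = 0.198), RNF2 at -0.36 and SUZ12 at -0.35 in the authors' deposited table. ACTR6, a subunit of a chromatin remodeller, fell by 0.79 in the authors' deposited table. The zinc-finger and DNA-binding proteins ZBTB41 and THAP5 fell by 0.89 and 0.73 in the authors' deposited table.

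Of the falls, 4 encode enzymes of ubiquitin transfer or removal. No list was counted for this class, so the 4 cannot be set against its share of measured genes. MINDY2 (chr15:58771192-58861900), a deubiquitinase, fell by 0.96 (SE 0.177, adjusted p = 0.000339) in the authors' deposited table. The conjugating enzyme UBE2Q2 fell by 0.77 in the authors' deposited table, and the ligases RNF149 and RNF6 by 0.73 and 0.72. Of metabolic enzymes, GLCE (chr15:69160584-69272217), the epimerase that converts glucuronic to iduronic acid in heparan sulfate, fell by 1.01 (SE 0.173, adjusted p = 8.7e-05) in the authors' deposited table. Among 30 measured heparan sulfate proteoglycans and enzymes GLCE alone was called (against 0.299% of measured genes), with a median of -0.02. The core protein SDC2 was the next by p at -0.48 (SE 0.165) in the authors' deposited table. GFPT1, the rate-limiting enzyme of the hexosamine pathway, fell by 0.88 in the authors' deposited table. LYRM7 (chr5:131170810-131205426), an assembly factor of mitochondrial complex III, fell by 1.01 (SE 0.177, adjusted p = 0.000154) in the authors' deposited table.

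ABCD2 (chr12:39550033-39619751), a peroxisomal transporter of very long-chain fatty acids, fell by 1.07 (SE 0.26, adjusted p = 0.0497) in the authors' deposited table, at an average log2 CPM of 2.28. GTSF1, a germ-cell factor of the piRNA pathway, fell by 0.71 in the authors' deposited table. The largest fall of all, 1.12 with an SE of 0.258 in the authors' deposited table, belonged to a processed pseudogene on chromosome 1 listed only by its identifier ENSG00000223612, which may share reads with a related gene. Nearest to the threshold, GDE1, PIK3C2A and ABCD2 had adjusted p-values of 0.0493, 0.0493 and 0.0497 in the authors' deposited table. Just outside it were the helicase DHX29 at -0.67, RNF11 at -0.66 and the RNA polymerase I subunit POLR1F at -0.67, with adjusted p-values of 0.0531, 0.0588 and 0.0617 in the authors' deposited table. These fold changes are within 1 SE of those of GDE1 and PIK3C2A.

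Of the 4 rises, ACVR2B (chr3:38453851-38493142), a type II receptor for activins, rose by 0.89 (SE 0.171, adjusted p = 0.000784) in the authors' deposited table, to 185% of the control level. It was the only called gene of 18 measured TGF-beta and activin receptors and SMADs (against 0.299% of measured genes). In that list SMAD3 at 0.39 was higher and BMPR2 at -0.45 was lower at an unadjusted p under 0.05 in the authors' deposited table. BANF1 (chr11:66002079-66004149), which links chromatin to the nuclear lamina, rose by 0.88 (SE 0.212, adjusted p = 0.0493) in the authors' deposited table. Its pseudogene BANF1P3 stood at 0.93 (SE 0.409) in the authors' deposited table, and counting could assign its reads to either. CASTOR2 (chr7:74964818-75024798), a relative of the arginine sensor of the mTOR complex, rose by 0.83 (SE 0.195, adjusted p = 0.0318) in the authors' deposited table. Its near-copy CASTOR3P, whose reads counting could also divide, stood at 0.10 in the authors' deposited table. ANP32B (chr9:97983361-98015943), a histone chaperone, rose by 0.73 (SE 0.167, adjusted p = 0.0238) in the authors' deposited table.

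Sites for miR-218-5p were frequent among the falls. Of the 41 falls with an annotated 3′ UTR, 39 held an 8mer or 7mer site (95.1%, exact Clopper-Pearson 95% interval 83.5 to 99.4%, which covers counting error only), against 21.5% of the other 11458 measured genes with a 3′ UTR. An 8mer was the best site in 22 falls (53.7% against 4.66% of the other genes), a 7mer-m8 in 14 (34.1% against 10.9%) and a 7mer-A1 in 3 (7.32% against 5.97%). The 3 with a 7mer-A1 were PCGF5, TMEM64 and IGFBP3. THAP5 held 6mer sites only in the 3′ UTR of its longest coding transcript, whereas that of another of its coding transcripts held a 7mer-A1. RNF6 held no match in its 3′ UTR. A pair or more of sites of 7 or 8 bases was present in 22 falls (53.7%) and in 5.07% of the other genes. Of the 4 rises, ACVR2B had a 7mer-m8 site and the other 3 had no 7mer or 8mer. A match is a description of the sequence, and binding at it was not measured.

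The fold change of all genes also differed by class of site. The median log2 fold change was -0.16 for the 556 genes whose best site was an 8mer, -0.07 for the 1264 with a 7mer-m8 and -0.09 for the 687 with a 7mer-A1. It was -0.01 for the 1831 genes with a 6mer only and -0.03 for the 7161 with no match. Below 0 stood 76.4% of the 8mer genes and 57.6% of the genes with no match. The median was -0.08 for genes with 1 site of 7 or 8 bases, -0.14 with 2 and -0.17 with 3 or more, and it was -0.30 for the 48 genes with 2 or more 8mers. Most genes with an 8mer were not called: 22 of 556 fell (3.96%). Genes with an 8mer in the coding region and no match in the 3′ UTR had a median of -0.07 (408 genes). None of them was called, against 0.299% of measured genes.

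**Figure D2:**
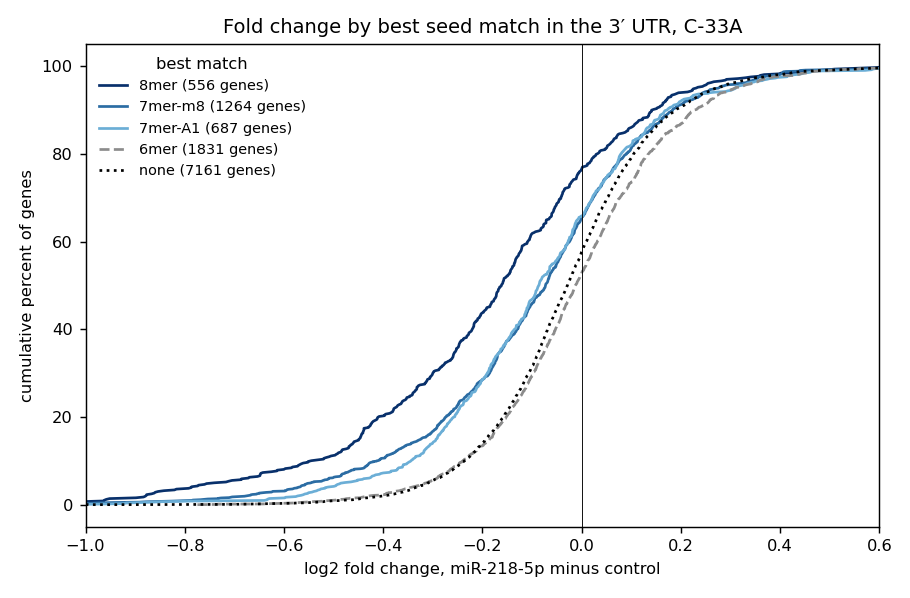
Cumulative percent of measured genes (y axis) up to each log2 fold change (miR-218-5p minus control, x axis), by the best miR-218-5p match in the 3′ UTR. The 8mer curve (median -0.16) lies farthest to the left, the 7mer-m8 and 7mer-A1 curves (-0.07 and -0.09) lie between, and the 6mer and no-match curves (-0.01 and -0.03) lie close together near 0.

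The classes also differed in 3′ UTR length: the median was 3256 nt for the 8mer genes and 830 nt for genes with no match. Within 3′ UTRs under 1000 nt the medians were -0.21 (41 8mer genes) and -0.05 (no match), within 1000 to 3000 nt -0.20 (209 genes) and -0.01, and over 3000 nt -0.11 (306 genes) and 0.01. The 8mer genes were thus the lower ones at each of the 3 lengths. Transcript length moved with the fold change too, from a median of -0.10 for transcripts under 1000 nt to -0.00286 for those over 8000 nt, and its part in the single falls was not tested. In the 30 bases on either side of a site, the median share of A and T was 68.3% at the 8mers of the falls and 61.7% at the 8mers of genes not called. At 7mer-m8 sites these shares were 67.5% and 58.3%.

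The same 8mer genes were read in the other C-33A comparisons, which share the 3 control libraries. Their median was 0.01 with the miR-124-3p mimic and -0.01 with the miR-23b-3p mimic. For the 48 genes with 2 or more 8mers the medians were -0.10 and -0.08, beside -0.30 with miR-218-5p. Over the 42 falls, the medians with those mimics were -0.13 and -0.13, beside -0.01 and 0.01 over all measured genes. With miR-124-3p, 29 of the 42 were below 0. Among them were PIK3C2A at -0.67 (adjusted p = 0.0548), PCGF5 at -0.61, IGFBP3 at -0.56 and TMEM64 at -0.54, whereas CILK1 stood at 0.59. Of the rises, BANF1 stood at 0.79 with miR-23b-3p and ACVR2B at 0.58 with miR-124-3p. These genes were not called with those mimics in the authors' deposited tables. RAB8B stood at -0.86 with miR-23b-3p (adjusted p = 0.00383), with which 0.031% of listed genes fell, beside -0.83 with miR-218-5p in the authors' deposited tables. CASTOR2, one of the rises, stood at 1.24 with miR-124-3p (adjusted p = 2.42e-06) and 0.85 with miR-23b-3p (adjusted p = 0.0326) beside 0.83 with miR-218-5p in the authors' deposited tables. All 3 values of CASTOR2 rest on the same control libraries, and the shares of listed genes that rose with those mimics were 0.031% and 0.0163%.

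Genes known from the literature as miR-218-5p targets were read as a list put together from background knowledge. The list was chosen with earlier results of these data known, so its counts describe the list and are no test of it. Of 28 genes, 23 were measured, 5 fell (against 0.273% of measured genes), none rose, and 11 were lower at an unadjusted p under 0.05 (against 3.61%). The median was -0.42, beside -0.04 over all measured genes. The 5 were GLCE, VOPP1, BIRC5, GJA1 and STAM2, given above. The other targets lower at the unadjusted threshold were not called. ROBO1, the receptor for the SLIT ligands, stood at -0.63 (SE 0.186, adjusted p = 0.407) in the authors' deposited table. BMI1 and RICTOR are given above. DCUN1D1, a cullin neddylation factor, stood at -0.46, TPD52, a vesicle trafficking protein, at -0.43 and ACTN1, an actin crosslinker, at -0.36 in the authors' deposited table, each with an adjusted p of 1.

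Other published targets lay near 0 or were measured with wide error. CDK6, the G1 kinase, stood at -0.44 with an SE of 0.315 at an average log2 CPM of 1.19 in the authors' deposited table. MITF stood at -0.42 (SE 0.22), TOB1 at -0.27 and IKBKB at -0.21 in the authors' deposited table. ID4, HMGB1, SFMBT1 and EGFR stood at -0.16, -0.12, -0.11 and -0.05, and CTTN, SP1, ONECUT2 and PXN at 0.01, 0.08, 0.09 and 0.22 in the authors' deposited table. The cortactin gene CTTN had an SE of 0.162, so its 95% interval ran from -0.31 to 0.33 in values recovered from the authors' deposited table. LAMB3, the laminin chain known as a miR-218-5p target in cervical cells, was at an average log2 CPM of -3.41 in C-33A and 7.22 in CaSki, where it stood at -0.06 in the authors' deposited table. ROBO2, HS3ST3B1, RUNX2 and CDCP1 were also under an average log2 CPM of 0 in C-33A. Sites of 7 or 8 bases were present in 21 of the 23 measured targets, so a site was held by called and uncalled targets alike.

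**Figure D3:**
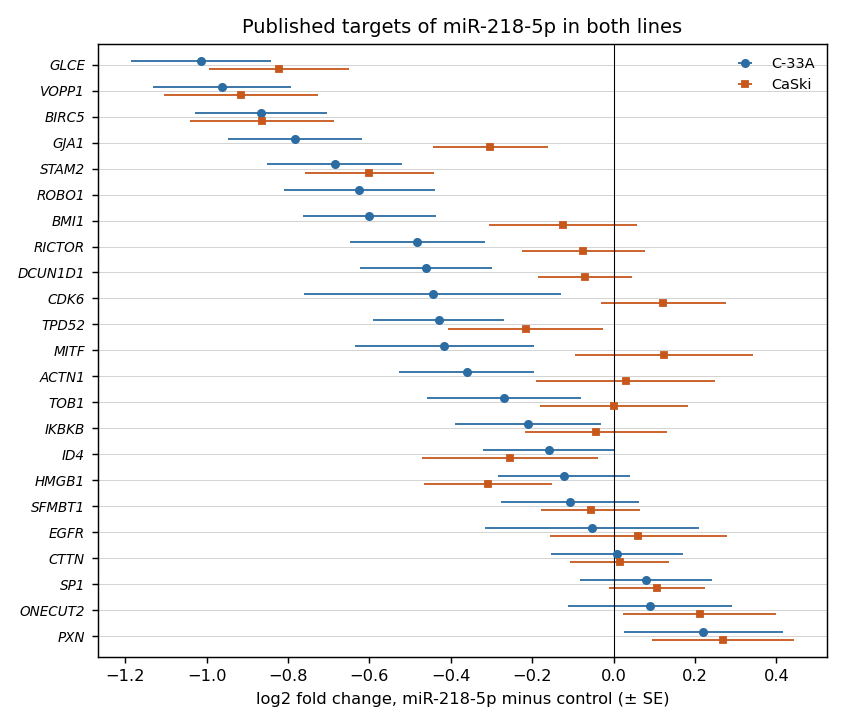
Log2 fold change (miR-218-5p minus control, x axis, ± SE) of the 23 published targets measured in C-33A (blue circles), with the CaSki value (orange squares) where the average log2 CPM there reached 0. GLCE, VOPP1 and BIRC5 lie near each other in both lines, whereas BMI1 (-0.60 and -0.12) and RICTOR (-0.48 and -0.07) lie apart by more than their SEs.

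CaSki gave a reading of the falls in libraries that C-33A does not share. Of the 42 falls, 37 reached an average log2 CPM of 0 in CaSki, and 36 of these were below 0 there, against 48.4% of all genes at that level. At an unadjusted p under 0.05, 32 of the 37 were lower (against 2.62%), and 9 were called at an FDR under 0.05 (against 0.0848%). The 9 were GLCE, CETN2, VOPP1, PCGF5, TMEM64, BIRC5, GNAI2, SNX4 and GDE1. CETN2 stood at -0.96 in CaSki (adjusted p = 0.01) and BIRC5 at -0.86 (adjusted p = 0.0139) in the authors' deposited table, beside -0.98 and -0.87 in C-33A. GNAI2 stood at -0.75 in CaSki and GDE1 at -0.68 in the authors' deposited table, beside -0.82 and -0.68 in C-33A. The exception to the direction was the pseudogene ENSG00000223612, at 0.07 with an SE of 1.31 in CaSki in the authors' deposited table. GASK1B, CADM2, DCDC2, GTSF1 and ABCD2 were under an average log2 CPM of 0 in CaSki and are not counted there. Of these, GASK1B stood at -1.08 in CaSki (SE 0.478, unadjusted p = 0.0244 by edgeR's quasi-likelihood test) in the authors' deposited table, at an average log2 CPM of -1.12, beside -0.95 in C-33A. Of the 4 rises, 3 were above 0 in CaSki (against 51.6% of genes) and 3 were higher at an unadjusted p under 0.05 (against 4.23%), and none was called (against 0.013%). ACVR2B and CASTOR2 stood at 0.77 and 0.92 in CaSki in the authors' deposited table, and BANF1 stood at -0.31 (SE 0.507).

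**Figure D4:**
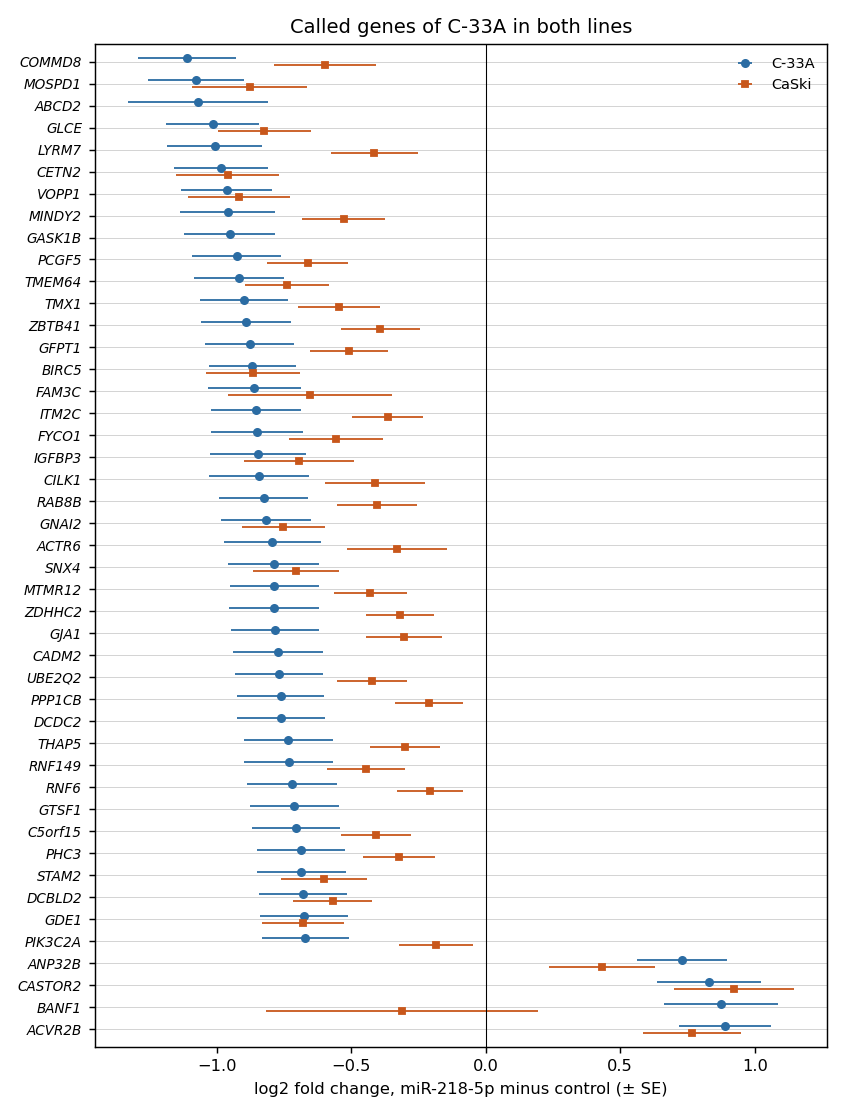
Log2 fold change (miR-218-5p minus control, x axis, ± SE) of the 45 called genes that have a symbol, in C-33A (blue circles) and in CaSki (orange squares, shown where the average log2 CPM reached 0). Every fall shown for CaSki lies below 0, and CETN2, BIRC5 and GDE1 lie at nearly the same place in both lines.

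The median of the 37 falls was -0.84 in C-33A and -0.51 in CaSki, and 36 of the 37 were smaller in size in CaSki. The genes were chosen on their C-33A values, so that count is no test of a difference. A normal test of the difference between the lines used the recovered SEs and Benjamini-Hochberg adjustment over the 12902 genes measured in both. It called 0 genes at an FDR under 0.05, with 201 at an unadjusted p under 0.05 (1.56%). That share is smaller than the threshold itself, so the test was conservative and could miss differences. The lowest p belonged to the zinc exporter SLC30A1, at -0.41 in C-33A and 0.38 in CaSki in the authors' deposited table (difference -0.79, SE 0.219). Next came HSPE1P2 (difference -1.45, SE 0.44) and the mitotic kinase NEK7 (-0.68, SE 0.215), computed from the authors' deposited tables. With adjustment over the called genes alone none passed either, and PPP1CB, with a difference of -0.55 (SE 0.206), had an adjusted p of 0.136 in this normal test. That set was also chosen on C-33A values, so its differences are biased and its adjusted p cannot be read as a fair test. These tests do not show that the lines respond alike: the median SE of the difference over the falls was 0.224, a 95% interval of ±0.438 on the log2 scale.

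For the published targets the lines stood apart in median, -0.42 in C-33A (23 genes) and -0.06 in CaSki (22 genes). Over all measured genes the medians were -0.04 and 0.02. No single target differed at the threshold of the difference test. BMI1 was at -0.12 and ACTN1 at 0.03 in CaSki in the authors' deposited table, beside -0.60 and -0.36 in C-33A. Over all measured genes with an 8mer the medians were -0.16 in C-33A and -0.05 in CaSki, beside -0.03 and 0.02 for genes with no match.

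**Figure D5:**
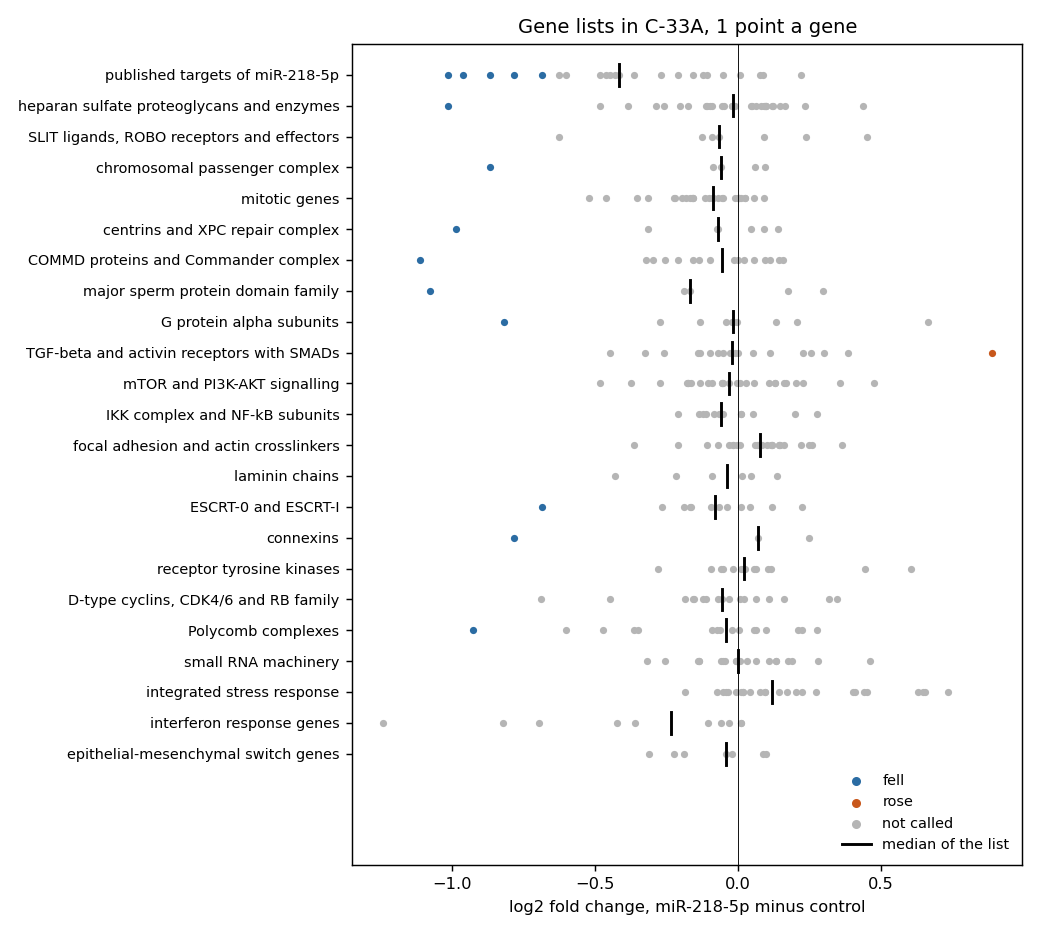
Log2 fold change in C-33A (miR-218-5p minus control, x axis) of the measured members of 23 gene lists, 1 point a gene, with the median of each list as a black bar. Outside the published targets, falls (blue) are single members at the left of their lists. The published targets have the lowest median (-0.42), and the rise of ACVR2B (orange) is the point farthest to the right among these lists, which leave out the cell type markers and the mitochondrially encoded genes.

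Other gene lists had few or no called members, beside 0.299% called of all measured genes. The integrated stress response list holds genes induced when translation initiation is held back, and also sensor kinases such as EIF2AK3. This list had 0 of 26 members called, 8 higher at an unadjusted p under 0.05 (against 1.44% of measured genes) and a median of 0.12. Against the same C-33A controls the median was 0.56 with miR-23b-3p and -0.10 with miR-124-3p. In CaSki with miR-218-5p it was 0.04 over 25 members, with 3 higher and 1 lower at an unadjusted p under 0.05 (against 4.23% and 2.62%). With miR-218-5p in C-33A, STC2 stood at 0.66 (SE 0.226), the transcription factor ATF3 at 0.65, SESN2 at 0.45 and the chaperone HSPA5 at 0.41 in the authors' deposited table, each with an adjusted p of 1. Of 30 interferon response genes 10 were measured, 0 were called and 4 were lower at the unadjusted threshold (against 3.61%), with a median of -0.23. These were IFIT2 at -1.24 (SE 0.372), IFIT1 at -0.69 (SE 0.229), IFIT5 at -0.42 and DDX60 at -0.82 in the authors' deposited table. IFIT2 and DDX60 were at average log2 CPM 0.58 and 0.42 there, near the floor of measurement, and the median was -0.08 with a minimum of 2. AGO2, the slicing Argonaute, stood at 0.46 (SE 0.162, adjusted p = 1) in the authors' deposited table, the only one of 20 small RNA genes that was higher at an unadjusted p under 0.05 (against 1.44% of measured genes, median 0.00).

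None of the lists in this paragraph had a called member, beside 0.299% called of all measured genes. In the cell cycle list of D-type cyclins, CDK4/6 and RB genes, 0 of 17 were called (median -0.05), and the inhibitor CDKN2C stood at -0.69 (adjusted p = 0.097) in the authors' deposited table. The focal adhesion list had 0 of 26 called (median 0.08), with ACTN1 at -0.36 and TLN2 at 0.36 in the authors' deposited table. The IKK and NF-kB list had 0 of 12 called (median -0.06) and the laminin list 0 of 6 (median -0.04, or 0.02 with a minimum average log2 CPM of 2). The epithelial-mesenchymal switch list had 7 of 19 genes measured and 0 called (median -0.04). The 13 mitochondrially encoded genes were all above 0, with a median of 0.65 and a median SE of 0.998, and none had an unadjusted p under 0.05.

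Of the SLIT and ROBO list, 7 of 10 genes were measured and 0 were called (against 0.299% of measured genes, median -0.06). SLIT2, the host gene of a miR-218 copy, stood at -0.06 (SE 0.162) at an average log2 CPM of 9.22 in the authors' deposited table. The row of MIR218-1 stood at -0.05 (SE 0.336) in the authors' deposited table. Libraries of polyA RNA do not count the mature mimic, so neither row checks that the mimic entered the cells.

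The labelled cell type was checked by its markers. Of 9 epithelial carcinoma markers, KRT18, KRT8 and CDKN2A reached an average log2 CPM of 0 in C-33A (0.88, 0.71 and 7.01 in the authors' deposited table), while EPCAM and CDH1 were at -0.68 and -2.99. None of the 10 squamous keratinocyte markers reached 0, and KRT5 was at -2.78 in C-33A and 12.05 in CaSki in the authors' deposited tables. The squamous label is therefore not borne out by these markers in C-33A. The epithelial markers bear out the carcinoma label only weakly, since KRT18 and KRT8 lay little above 0 and CDKN2A alone was high. Of markers of other cells, 3 of 7 fibroblast markers (COL3A1 at 7.11), 1 of 6 leukocyte markers (PTPRC at 2.45) and 0 of 5 endothelial markers reached 0 in the authors' deposited table. COL3A1 and PTPRC stood at -0.28 and 0.02 after the mimic in the authors' deposited table, and no marker of these lists was called (against 0.299% of measured genes).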

How the data were processed

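PolyA RNA sequencing of C-33A and CaSki was used as the authors' deposited edgeR tables. Tools named per the submitters' processing notes are edgeR 3.36.0, FastQC 0.73, featureCounts 2.0.3 and STAR 2.7.10b, and the build is GRCh38 (hg38). The strand setting was not found in those sources, so reads of overlapping genes cannot be told apart. Per the file headers, a deposited table lists 61217 genes, unfiltered, with the log2 fold change, the average log2 CPM (log2), the F statistic (a score), the p-value and the FDR. The order mimic minus control was taken from the name of the comparison. Adjusting the deposited p-values by Benjamini-Hochberg over all listed genes gave back the FDR. The F score and p-value together imply a median of 244868 denominator degrees of freedom in C-33A and 25.7 in CaSki, so the C-33A values rest on a spread pooled over genes.

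No counts per sample were used, so the deposited statistics replaced a count fit. SEs were recovered by dividing a log2 fold change by the normal quantile that its p-value corresponds to. Genes whose average log2 CPM reached 0 were termed measured. Sites were searched in the 3′ UTR of the longest coding transcript of GENCODE release 29, present for 19089 listed genes. The members and the 29 gene lists (469 symbols), put together from background knowledge, were chosen with earlier results of these data known. Named were all called genes (full statistics for the 12 largest coding falls of average log2 CPM from 1 up, and for the rises), the published targets, up to 4 members of a list by p, 3 genes on either side of the threshold and up to 4 genes that differed most between lines, of which 1 is not reported here. Full statistics of other genes, and PHC3, FAM3C2P, BANF1P3 and CASTOR3P beside them, were given after their values were seen. Python 3.11.15 with pandas 2.3.3 and scipy 1.17.1 was used.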

Additional observations from a re-analysis of the deposited data

How the results depend on the processing

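The 46 calls (42 lower, 4 higher) became 29 (28 lower, 1 higher) at an FDR under 0.01 and 60 at an FDR under 0.1. They became 70 (64 lower) with the p-values adjusted over measured genes (average log2 CPM from 0), and 74 (68 lower) with a minimum of 1. The first of these added 24 genes, of which 22 were lower, BMI1 among them, and 17 of the 20 of these with a 3′ UTR held a 7mer or 8mer site. A minimum fold change of 1.5 left 46. The median of genes with a 7mer or 8mer site minus that of genes without was -0.07, and it was -0.13 with 8mer sites only and -0.025 with 6mer or longer sites. The minimum level, the choice of transcript and matching on 3′ UTR length left it between -0.09 and -0.06. The share of falls with a site, 95.1%, was 53.7% with 8mer sites only, 100% at an FDR under 0.01, and 97.6% and 92.6% with 6mer sites and at an FDR under 0.1. The difference between lines gave 0 calls in each of its 3 settings, including the called genes alone, which were chosen on their C-33A values. No paired analysis was possible because the deposited tables hold no values per sample; leaving out a replicate and DESeq2 were not run for the same reason. Depth per library is unknown, and below an average log2 CPM of 2 the median SE of 0.341 limits what could be called.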
